A study of Mus musculus with 12 samples.

Results

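In 20326 regions of the mouse genome, open chromatin was listed in all 4 sorted populations of intestinal epithelial cells and spanned less than 1000 bp. These compact shared regions were 24.7% of all 82365 merged regions (exact 95% interval 24.4 to 24.97%) and 74.5% of the 27294 regions that all 4 populations held (73.9 to 74.99%). They were chosen by presence in the 4 peak lists and by span, so their presence and their size limit are descriptions and not findings.

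The cells came from C57Bl/6 mice with a Sox9-EGFP reporter, in which the green protein reports expression of Sox9, which encodes a transcription factor made in crypt cells. All 4 groups carry the reporter and differ in its level: Sox9 Negative, Sox9 Sublow, Sox9 Low and Sox9 High, with 3 Omni-ATAC-seq libraries each. The labels put the collection at 12000 cells per population and give neither age nor treatment, and they do not say whether libraries came from separate animals. Each population is given as 1 consensus peak list on the mm9 build, so no comparison between populations below has a replicate error or a test. A reporter gate is not a cell type: as background from work on this reporter, the Low gate is rich in stem cells of the crypt base and the Sublow gate in dividing progenitors. The High gate is known for hormone-producing and other secretory cells, and most cells without reporter are mature absorptive cells or other differentiated types. Marker genes of these types were not checked, since no region was assigned to a gene.

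In this assay the Tn5 transposase inserts adapters where DNA is free of nucleosomes, and a peak is a stretch with many insertions. Sites open in every cell type of a tissue are, as general background, often promoters of widely used genes, sites bound by the insulator protein CTCF, or enhancers common to the lineage. The intestinal lineages all descend from crypt stem cells, and many of their regulatory sites are known to be open in several of them. An mm9 annotation was not used here, so none of the regions below is assigned to a gene or element. Peak width is the length of DNA called open, not a level of accessibility. In a sorted bulk population, a region open in fewer cells and a region cut less often per cell cannot be told apart.

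The 4 lists differ in length, from 45461 peaks in Negative to 58356 in Low, with 52113 in Sublow and 54395 in High. The compact shared regions took up 45% of the Negative peaks, 39.1% of the Sublow peaks, 34.9% of the Low peaks and 37.6% of the High peaks. By covered bases they made up 9.42 Mb of the Negative list, 11.7 Mb of the Sublow list, 11.5 Mb of the Low list and 9.98 Mb of the High list. As a share of the bases each list covers, this was 43.7% for Negative, 40.9% for Sublow, 38.3% for Low and 38.5% for High. The rule asks for a peak of every list, so the numbers of peaks in these regions are near equal by choice, and the covered bases were unequal.

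Their span ran from 154 bp to just under 1000 bp with a median of 640 bp (order-statistic 95% interval 636 to 643 bp), and the middle 50% lay between 491 and 796 bp. The narrowest lay on chromosome 11 from 120169033 to 120169186, where the peaks measured 129 bp for Negative, 154 bp for Sublow, 144 bp for Low and 134 bp for High. The next narrowest, of 164 bp, lay on chromosome 2 from 71803651 to 71803814, and one of 168 bp on chromosome 13 from 30640823 to 30640990. At the upper end, just under 1000 bp, the region on chromosome 2 from 132123891 to 132124889 had peaks of 592 bp for Negative, 752 bp for Sublow, 794 bp for Low and 787 bp for High, so that no single list covered it. The size limit cuts through a continuous range. Of the 2205 regions of 900 bp or more, 2099 had 1 peak per list, with median widths of 766 bp for Negative, 906 bp for Sublow, 894 bp for Low and 840 bp for High. Of the 1867 shared regions in the next 100 bp of span, just outside, 1689 had 1 peak per list, with 855, 1000, 987 and 939 bp in the same order of populations.

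Nearly all compact shared regions were a single peak in every population. Of the 20326, 20028 (98.5%, exact interval 98.4 to 98.7%) had 1 peak in each list, and 298 (1.47%) were broken into 2 peaks in at least 1 list. Among the 6968 shared regions of 1000 bp or more, called broad below, 1353 (19.4%) held several peaks of a list. A compact region was split most often in Negative (132 regions) and High (114), and less often in Low (64) and Sublow (38). In 104 regions Negative alone was split, and in 86 High alone. A longer region has more room for a gap, and the part that span has in these shares was not tested.

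Within the compact shared regions the peaks of the middle reporter levels were the widest. In the 20028 regions with 1 peak per list, the median width was 452 bp for Negative (448 to 456 bp), 575 bp for Sublow (570 to 579 bp), 563 bp for Low (559 to 567 bp) and 474 bp for High (470 to 479 bp). A Negative peak covered a median of 76.5% of the region's span, a Sublow peak 94.3%, a Low peak 93.0% and a High peak 82.4%. Small peaks under 200 bp were found in 10.6% of the regions in Negative and 9.36% in High, and in 2.28% in Sublow and 2.38% in Low. The middle populations also had the wider peaks over the lists as a whole, where the median width was 394 bp for Negative, 464 bp for Sublow, 433 bp for Low and 383 bp for High, with High below Negative, unlike in the compact shared regions. Depth per library is unknown, and its part in these widths was not tested.

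**Figure D1:**
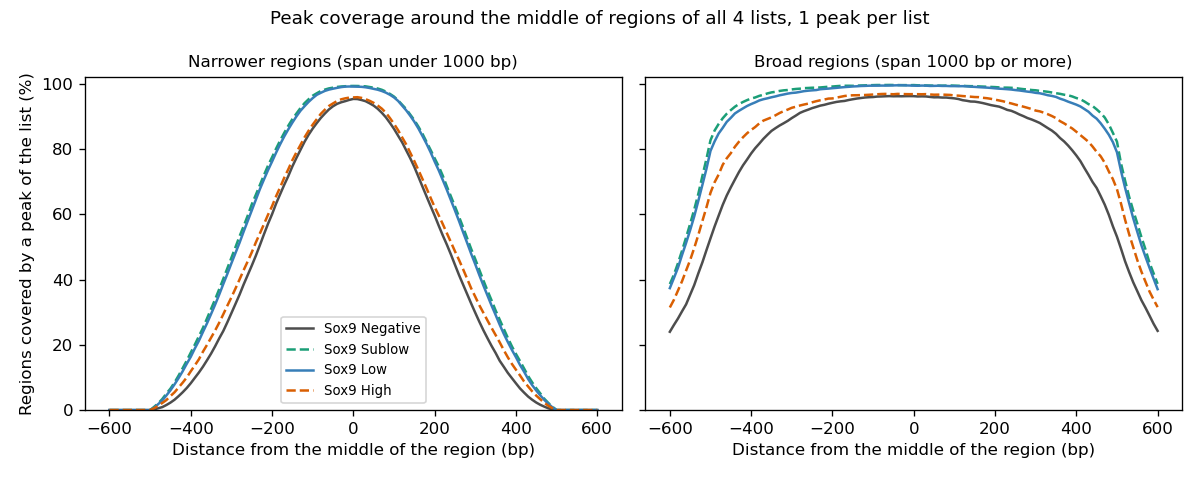
Share of regions (vertical axis, %) in which a peak of each list covers the position at a given distance from the region's middle (horizontal axis, bp), for compact and for broad shared regions with 1 peak per list. At the middle of the compact regions 95.3% lay under a Negative peak, 99.3% under a Sublow peak, 99.1% under a Low peak and 95.8% under a High peak, and the Negative and High curves fall off closer to the middle on both sides.

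By the rule every region holds a peak of each list, so coverage at its middle is high for all lists. A difference in width can then show mainly at the flanks, where it was alike on both sides. At 200 bp to the left of the middle, 60.01% of the regions were covered by a Negative peak, 77.5% by a Sublow peak, 76.1% by a Low peak and 62.5% by a High peak. To the right the values were 59.6, 77.2, 76.2 and 62.2%. A Sublow peak reached a median of 68 bp to the left and 67 bp to the right beyond the stretch that all 4 lists covered, and a Low peak 62 and 61 bp. A High peak reached 17 bp on each side and a Negative peak 0 bp, which means that Negative itself most often set the inner edge.

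Most compact shared regions had a common centre. The stretch covered by all 4 lists had a median of 355 bp (351 to 359 bp), which was 62.1% of the span (61.7 to 62.6%). It reached at least 50% of the span in 13642 regions (68.1%) and at least 90% in 815 (4.07%). In 1704 regions (8.51%) it was under 150 bp, about the length of DNA on a nucleosome. In 81 regions (0.404%) no base was common to all 4 peaks, so these count as shared only because overlapping peaks form a chain. In the broad shared regions the common stretch was a median of 921 bp or 78.0% of the span.

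The peaks of 1 region were often nested. In 8512 of the 20028 regions (42.5%) at least 1 list covered the whole region, and in 11509 (57.5%) at least 1 list lay inside the other 3. Both held in 5445 regions (27.2%). With ties counted for each list, the one inside the other 3 was Negative in 6748 regions and High in 4103, but Low in 515 and Sublow in 191. The list that covered the whole region was Sublow in 3326 regions, Low in 3021, High in 1484 and Negative in 767.

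The middles of the peaks stayed close. Low and Sublow middles were a median of 19.5 bp apart, High and Negative middles 34 bp, and the other pairs between 27.5 and 31.5 bp. Middles more than 100 bp apart occurred in 3.66% of the regions for Low and Sublow and in 12.7% for High and Negative.

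Pair by pair, the width ratio separated the middle from the ends of the reporter range. Sublow peaks were wider than Negative peaks in 84.4% of the regions, with a median log2 ratio of 0.26 (0.25 to 0.26). Low peaks exceeded Negative peaks by a median log2 ratio of 0.24 (0.23 to 0.25). High peaks were narrower than Low peaks in 70.0% of the regions, at a median log2 ratio of -0.14 (-0.15 to -0.13), and narrower than Sublow peaks at -0.16 (-0.17 to -0.15). Low and Sublow were nearly equal, at -0.01 (-0.02 to -0.01). High over Negative was 0.09 (0.08 to 0.10), with the middle 50% of regions between -0.22 and 0.40, the widest spread of the 6 pairs.

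Over all regions with 1 peak in both lists of a pair, which include the compact shared ones, these median log2 ratios were 0.21 for Sublow over Negative, 0.20 for Low over Negative, 0.09 for High over Negative, 0.00 for Low over Sublow, -0.11 for High over Sublow and -0.09 for High over Low. In broad shared regions the same ratios were 0.18, 0.16, 0.10, -0.01, -0.07 and -0.06. Apart from High over Negative, each was smaller in size in broad than in compact regions. Since the 1000 bp limit bounds every width, no test was made of these differences.

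Larger differences in width were counted with a 1.5-fold threshold. Sublow peaks were at least 1.5 times as wide as Negative peaks in 4762 compact shared regions (23.8%), against a background of 21.7% among all regions with 1 peak in both lists. The opposite, a Sublow peak at least 1.5 times narrower than the Negative one, was found in 257 (1.28%, background 4.11%). High peaks were at least 1.5 times narrower than Low peaks in 4177 regions (20.9%, background 18.6%) and at least 1.5 times wider in 656 (3.28%, background 8.62%). The shares of wider Sublow and of narrower High peaks lay close to their backgrounds and are no result about the compact shared regions. The opposite departures were a smaller share than in the background. They were rarer still in broad shared regions, at 0.356% for Sublow narrower than Negative and 1.104% for High wider than Low. The smaller share is thus not particular to the compact shared regions.

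Low peaks were at least 1.5 times wider than Sublow peaks in 501 regions (2.502%, background 7.58%) and at least 1.5 times narrower in 717 (3.58%, background 5.58%). In broad shared regions both shares were lower, at 0.606% wider and 1.30% narrower. Between the ends of the range, High peaks were at least 1.5 times wider than Negative peaks in 3468 regions (17.3%, background 16.3%) and at least 1.5 times narrower in 2734 (13.7%, background 12.5%). The ends of the reporter range thus departed from each other in both directions, in numbers close to the background.

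Narrow peaks of Negative and of High were compared region by region. Of the 4762 regions with a Sublow peak at least 1.5 times as wide as the Negative one, 31.5% also had a Low peak at least 1.5 times as wide as the High one, against 20.9% of all 20028 regions. These made up 35.9% of the 4177 regions of that second kind, against 23.8% of all for the first kind. A Sublow peak at least 1.5 times as wide as the Negative one, without the like between Low and High, was found in 3264 regions (16.3%). There the median widths were 254 bp for Negative, 533 bp for Sublow, 530 bp for Low and 501.5 bp for High. A Low peak at least 1.5 times as wide as the High one, without the like between Sublow and Negative, was found in 2679 (13.4%), with medians of 477 bp for Negative, 539 bp for Sublow, 529 bp for Low and 239 bp for High. Both held in 1498 regions (7.48%), where Negative measured 254 bp, Sublow 549 bp, Low 552 bp and High 249 bp at the median. In 12587 regions (62.8%) neither end was narrow by this measure. Of the broad shared regions 82.2% were in this last class, and in 3.22% both held. Among broad regions 13.1% were of the first kind and 7.94% of the second. Sublow and Low widths went together in compact regions (Pearson's r 0.88 on a log2 scale), so the first and second kind are not independent.

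**Figure D2:**
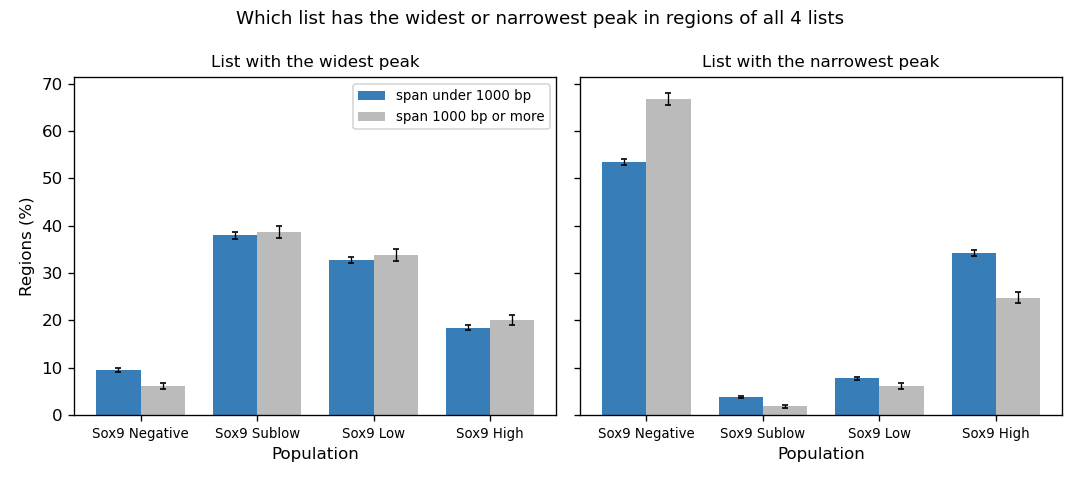
Share of shared regions with 1 peak per list (vertical axis, %) in which each population's peak is the widest (left) or the narrowest (right), for compact and broad regions; bars carry exact 95% intervals that cover counting over regions only. In compact regions Sublow was most often the widest (38.0%) and Negative most often the narrowest (53.4%).

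With ties left out, the Sublow peak was the widest of the 4 in 38.0% of the compact shared regions, the Low peak in 32.7%, the High peak in 18.4% and the Negative peak in 9.45%. The narrowest was Negative in 53.4%, High in 34.3%, Low in 7.70% and Sublow in 3.78%. High was the narrowest more often among compact than among broad shared regions, at 34.3% (33.6 to 34.9%) against 24.8% (23.7 to 26.0%), while Negative was the narrowest in 53.4% (52.7 to 54.1%) against 66.8% (65.5 to 68.0%). These intervals did not overlap, but they treat regions as independent and do not cover differences between libraries.

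Both middle populations had wider peaks than both ends in 9818 regions (49.0%), close to the 50.65% of broad shared regions. The most frequent order without ties was Low, Sublow, High, Negative from wide to narrow (2826 regions, 14.1%), followed by Sublow, Low, High, Negative (2550, 12.7%) and Sublow, Low, Negative, High (2378, 11.9%). A width that increased at each step of reporter level was found in 1578 regions (7.88%, broad 9.69%). A width that decreased at each step was found in 927 (4.63%, broad 3.19%). Both ends were wider than both middle populations in 686 (3.43%, broad 1.75%). The widest peak was a median of 1.51 times the narrowest, and at least 2 times in 5383 regions (26.9%). In broad shared regions the median was 1.23 times, and 11.2% reached at least 2 times. Ratios weigh the same difference in bp less in longer regions, and the part of span in them was not tested.

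Some compact shared regions were called almost identically in all 4 populations. On chromosome 13 from 44964934 to 44965392 the Negative, Sublow and High peaks all measured 459 bp and the Low peak 458 bp. On chromosome 12 from 79451856 to 79452163 the Negative and Sublow peaks measured 307 bp and the Low and High peaks 308 bp. On chromosome 9 from 114865978 to 114866359 the Negative, Sublow and Low peaks measured 378 bp and the High peak 382 bp. In all, the widest peak was at most 1.1 times as wide as the narrowest in 1215 regions (6.07%). Such even regions were a larger share of the broad shared regions, at 18.4%. The measure is a ratio, so the same difference in bp weighs less in a longer region. The part that span has in these shares was not tested.

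Others were uneven, and the region with the most uneven width was picked for each population. Negative had its largest lead on chromosome 2 from 131041763 to 131042332, with 570 bp for Negative, 213 bp for Sublow, 199 bp for Low and 184 bp for High. Low had its largest lead on chromosome 12 from 33945514 to 33946253, with 163 bp for Negative, 161 bp for Sublow, 740 bp for Low and 144 bp for High. There the High peak lay at one end of the Low peak and the Negative and Sublow peaks at the other, with no base in common. High had its largest lead on chromosome 10 from 126559882 to 126560763, with 175 bp for Negative, 180 bp for Sublow, 200 bp for Low and 819 bp for High. The lead of Sublow was smaller, at 621 bp on chromosome 18 from 24147626 to 24148246, against 249 bp for Low as the next widest. In each of these regions a short peak was listed in the remaining populations, between 144 and 249 bp.

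In the opposite cases 1 population had a short peak where the others had long ones. On chromosome 12 from 51749610 to 51750502 the Negative peak measured 111 bp, against 862 bp for Sublow, 893 bp for Low and 814 bp for High. On chromosome 18 from 67921821 to 67922802 the High peak measured 132 bp, against 965 bp for Negative, 951 bp for Sublow and 912 bp for Low. On chromosome 15 from 76526216 to 76527203 the Low peak measured 169 bp, against 988 bp for Negative, 737 bp for Sublow and 632 bp for High. On chromosome 11 from 119381823 to 119382463 the Sublow peak measured 156 bp, against 542 bp for Negative, 456 bp for Low and 623 bp for High. The largest shortfalls of Negative (7.33-fold against the next narrowest) and High (6.91-fold) exceeded those of Low (3.74-fold) and Sublow (2.92-fold).

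**Figure D3:**
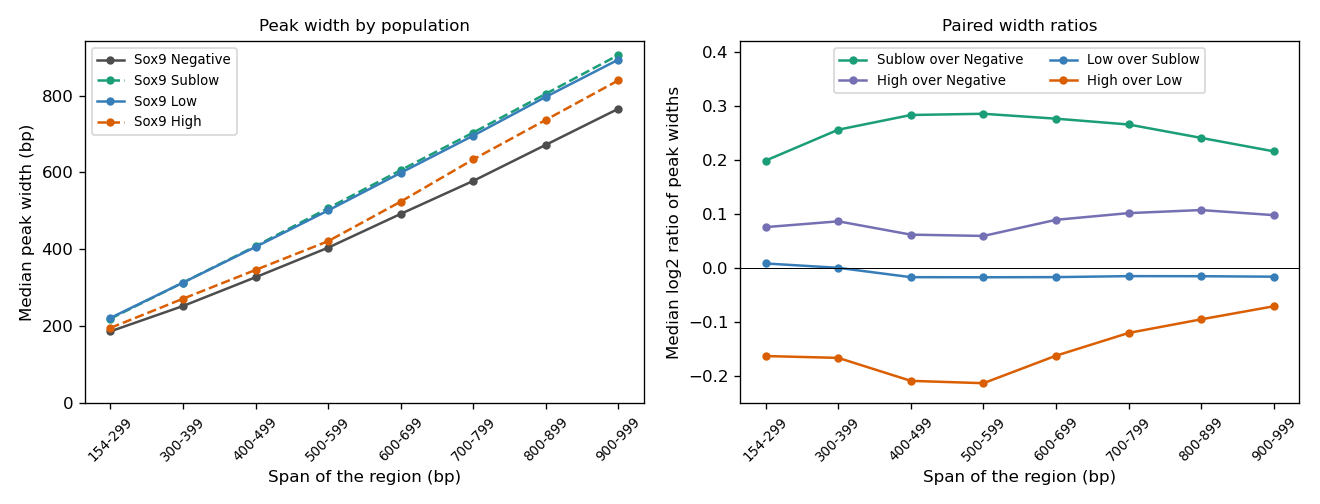
Median peak width (left, bp) and median log2 ratio of paired widths (right) in compact shared regions with 1 peak per list, by span of the region (horizontal axis, bp). Sublow and Low lie together above High and Negative at every span, and High moves from near Negative at 500 bp to under 600 bp towards Low at 900 bp or more.

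The lag of High behind Low differed between size classes. The span of a region is set by the outer edges of the same peaks whose widths are compared. Sorting by span therefore limits these widths, and its part in the ratios below was not tested. High over Low had a median log2 ratio of -0.16 in the 753 regions under 300 bp, -0.21 both at 400 bp to under 500 bp and at 500 bp to under 600 bp, and -0.07 at 900 bp or more. In regions of 500 bp to under 600 bp the High peak measured a median of 421 bp and lay close to the Negative peak of 404 bp, below 501 bp for Low. In regions of 900 bp or more it measured 840 bp, between 766 bp for Negative and 894 bp for Low. Sublow over Negative varied less, from 0.20 under 300 bp to 0.29 at 500 bp to under 600 bp and 0.22 at 900 bp or more. The common stretch was the smallest part of the span at 300 bp to under 400 bp (54.3%) and the largest at 900 bp or more (73.9%).

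The share of compact regions in which Negative had the widest peak was 14.2% at 300 bp to under 400 bp and 6.53% at 900 bp or more. For High the share stayed between 17.4 and 19.5% over all size classes. Widths of 2 lists correlated across the 20028 regions with Pearson's r on a log2 scale from 0.52 for High and Negative to 0.88 for Low and Sublow. The regions share the size limit and the populations' lists share no stated depth, so these values only describe the lists.

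**Figure D4:**
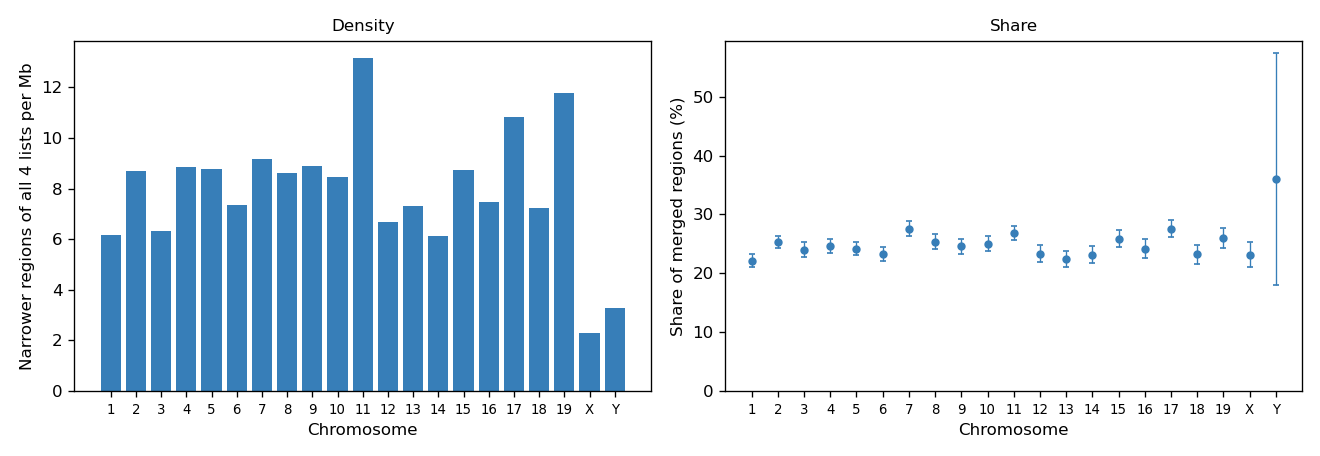
Compact shared regions per Mb between the first and last listed region of each chromosome (left) and their share of the chromosome's merged regions with exact 95% intervals (right, %). Density varies more than 2-fold among autosomes, with chromosome 11 the highest at 13.2 per Mb, while the share varies between 22.1 and 27.6%.

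Compact shared regions lay on all 19 autosomes and on X and Y, in proportions that followed open regions in general. Density ran from 6.14 per Mb on chromosome 14 to 13.2 per Mb on chromosome 11, with a median of 8.63 over the 19 autosomes. As a share of the merged regions of a chromosome they varied less, from 22.1% on chromosome 1 to 27.6% on chromosome 7. The X chromosome had 371 of them, or 2.302 per Mb and 23.1% of its merged regions (21.1 to 25.3%). The Y chromosome had 9 of its 25 regions. The number of copies of X and Y per cell was not taken into account.

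Width ratios varied between autosomes. The median log2 ratio of Sublow over Negative ran from 0.21 on chromosome 19 to 0.28 on chromosome 12, and High over Low from -0.21 on chromosome 6 to -0.10 on chromosome 11. The sign of each was the same on all 19. On X, Sublow over Negative was 0.32 and High over Negative 0.17 in 364 regions, above the autosomal ranges, whose upper ends were 0.28 and 0.12. On Y, Sublow over Negative was -0.29, in 9 regions only.

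Compact shared regions had near neighbours. The nearest other region of any kind was a median of 3865 bp away (3761 to 3991 bp), and 58.8% had one within 5 kb. For broad shared regions the median was 5528 bp (5377 to 5679 bp), for regions missing from High only 3018.5 bp (2899 to 3139 bp), and for regions missing from Negative only 4909 bp (4759 to 5060 bp). The intervals of the 4 classes did not overlap, with the same limit as above.

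The nearest other compact shared region lay a median of 13215.5 bp away, close to the 13441.5 bp seen from regions missing from High only and nearer than the 21853 bp seen from regions missing from Negative only. Within 10 kb, 42.0% of the compact regions had another compact one and 14.9% a broad one. A region of High alone lay within 10 kb of 18.4% of the compact regions, a region of Negative alone within 10 kb of 14.9%, one of Low alone of 9.34% and one of Sublow alone of 4.29%. The lists hold 13694 regions of High alone, 5620 of Negative alone, 5283 of Low alone and 1696 of Sublow alone. Negative alone and Low alone are thus similar in number and differ in these shares. This is not particular to compact regions. The shares in the same order were 14.4% and 8.08% for broad shared regions, and 17.6% and 10.2% for regions missing from High only. For regions missing from Negative only the order was reversed, at 7.57% and 10.6%.

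Along the chromosomes, 51.6% of the compact shared regions stood between regions of other kinds, and the others formed runs of 2 or more. Compact shared regions are 24.7% of all merged regions, and whether they cluster beyond that share was not tested. The longest runs held 11 in a row and occurred 2 times, the first over 221 kb on chromosome 7 from 30553043 to 30774370. Of the 15363 windows of 100 kb with any region, 8733 held at least 1 compact shared region and 957 held 5 or more. Those 957 windows contained 5804 of the compact regions.

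In the windows with the most, chromosome 3 from 89000001 to 89100000 held 14 among 20 regions and chromosome 7 from 30000001 to 30100000 held 14 among 23. A window on chromosome 10 from 79600001 to 79700000 held 13 among 19. Median peak widths in the chromosome 3 window were 436 bp for Negative, 563.5 bp for Sublow, 469.5 bp for Low and 489.5 bp for High. In the chromosome 7 window they were 331.5, 400.5, 437.5 and 364 bp in the same order, and in the chromosome 10 window 440, 539, 550 and 603 bp. Sublow or Low was the widest in the first windows and High in the last, each over only 13 or 14 regions.

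**Figure D5:**
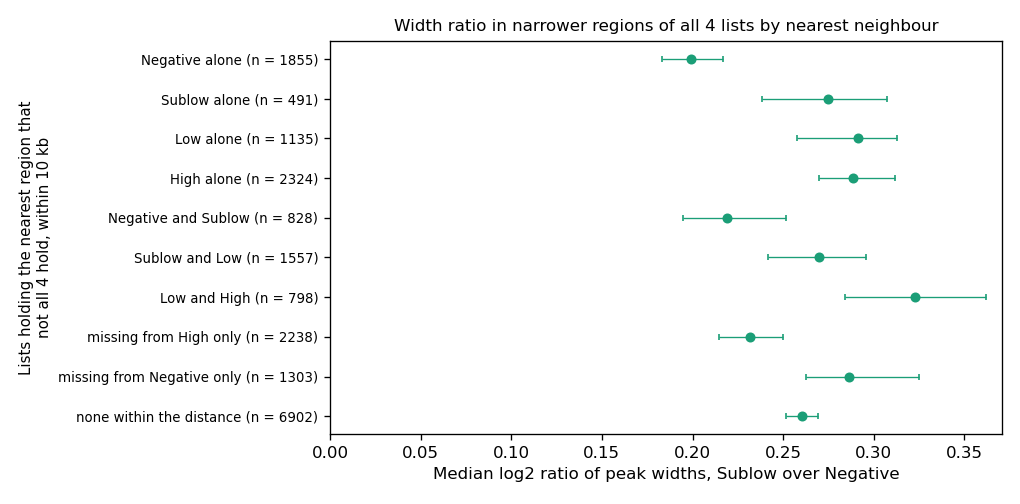
Median log2 ratio of Sublow over Negative peak width in compact shared regions (horizontal axis) by the lists that hold the nearest region not held by all 4, within 10 kb (vertical axis); lines are order-statistic 95% intervals over regions. The 3 kinds of neighbour that include Negative lie between 0.20 and 0.23 and the other kinds between 0.26 and 0.32.

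The ratio of Sublow to Negative peak width varied with what lay nearby. Where the nearest region not held by all 4 lists was one of Negative alone, within 10 kb, Sublow over Negative had a median log2 ratio of 0.20 (0.18 to 0.22) in 1855 compact regions. Next to a region of Negative and Sublow it was 0.22 (0.19 to 0.25) in 828, and next to one missing from High only 0.23 (0.21 to 0.25) in 2238. Next to a region of High alone it was 0.29 (0.27 to 0.31) in 2324, next to one missing from Negative only 0.29 (0.26 to 0.32) in 1303, and next to one of Low and High 0.32 (0.28 to 0.36) in 798. Next to a region of Sublow alone it was 0.27 (0.24 to 0.31) in 491, an interval that overlapped those of all but the first of the kinds with Negative. With no such neighbour within 10 kb it was 0.26 (0.25 to 0.27) in 6902 regions. The median Negative peak was 482 bp beside a region of Negative alone, 420 bp beside one of High alone and 477 bp with no such neighbour. The median Sublow peak was 580, 551 and 605 bp in the same order. Beside a region of Negative alone the Negative peak was thus close to its width with no neighbour, and the Sublow peak was shorter.

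The ratios of High peaks were also set beside the kind of neighbour. High over Low had a median log2 ratio of -0.17 beside a region of High alone, -0.16 beside one of Low and High, -0.14 beside one missing from High only, and -0.15 beside one of Negative alone. It was lowest, at -0.19, beside a region of Negative and Sublow, so neighbours with and without High overlapped in this ratio. High over Negative was 0.02 beside a region of Negative alone, 0.05 beside one of Negative and Sublow or one missing from High only, 0.08 beside one of High alone, 0.11 beside one of Low and High and 0.12 beside one missing from Negative only. With no neighbour within 10 kb High over Low was -0.12 and High over Negative 0.12, and High peaks there measured a median of 522 bp, against 446 bp beside a region of High alone. Another 597 regions had a neighbour held by other combinations of lists. Between nearest compact regions, the log2 ratios of Sublow over Negative, High over Negative and High over Low correlated only with r from -0.07 to 0.10 in all distance classes, which is no finding.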

How the data were processed

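Omni-ATAC-seq libraries, 3 for each of 4 sorted populations (12 in all), were given by the authors as 1 deposited consensus peak list per population. Each deposited list holds peak positions and other plain text fields: chromosome, start, end and name. It holds no height, read count or value per library, so depth is unknown and no value has a replicate error. Per the submitters' processing notes, the build was mm9 and the tools included MACS2 2.1.2, Bowtie2 2.3.4, deepTools 2.5.2, Trim Galore 0.4.3 and Picard 2.10.3. Their settings, the Tn5 shift and the rule that joined the libraries are not given in the sources used here.

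Positions were read as counted from 1 with the end included, since 1 to 4 peaks per list have a start equal to their end. Overlapping or touching peaks of the lists were merged, and regions with a peak of all 4 lists and a span under 1000 bp were kept. Widths were compared in the 20028 of these with 1 peak in every list. With 1 list per population no test was made. Intervals are 95% intervals, exact (Clopper-Pearson) for shares and from order statistics for medians. They cover counting over regions only, not animals or libraries. The reference tables at hand are on GRCm38, so no region was given a gene or sequence, and the gene lists and motifs were not used. Single regions were named by a rule on extremes: the narrowest and widest spans, the most similar edges, and the most uneven widths for each population (all peaks 100 bp or more). The regions and the rules were chosen with earlier results of these data known. The merging was tested on simulated data. Tables and figures were made in Python 3.11.15 (pandas 2.3.3, scipy 1.17.1, matplotlib 3.10.9, numpy 2.4.6).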

Additional observations from a re-analysis of the deposited data

How the results depend on the processing

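No paired analysis was possible because the libraries have no values of their own in the lists, and no library was left out. Alternatives on gene position and on motifs were not run. Of 88 alternative values, 36 were log2 ratios with a sign, and none of these 36 changed it. Of the 88, 33 lay within their limits (1.5-fold for the number of regions, the 95% interval over regions otherwise) and 55 did not, 16 of them medians of width. On autosomes, and with widths summed over all peaks of a list, all values lay within the limits.

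The share of all regions was 17.5% when every list had to cover at least 50% of the span, 23.8% with peaks up to 500 bp apart joined, 23.7% with peaks of at least 200 bp, and 18.6% with spans under 800 bp. With spans under 500 bp it was 6.50%, with 5351 regions. The median log2 ratios of width are given in the order Sublow over Negative, Low over Negative, High over Negative, Low over Sublow, High over Sublow and High over Low. They were 0.27, 0.26, 0.0816, -0.0144, -0.19 and -0.17 with spans under 800 bp, and 0.26, 0.27, 0.0718, -0.00714, -0.20 and -0.19 with spans under 500 bp. With no limit on span they were 0.24, 0.22, 0.09, -0.0121, -0.13 and -0.11. In regions whose 4 peaks reached 200 bp they were 0.23, 0.21, 0.09, -0.0181, -0.14 and -0.11. The common stretch was 59.0, 56.2, 66.0 and 67.3% of the span in these 4 settings.

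Counting only differences of at least 50 bp from every other list, the widest peak was in Negative in 3.84% of the regions, Sublow 13.4%, Low 11.4% and High 8.28%, and the narrowest in Negative in 34.3%, Sublow 0.979%, Low 2.64% and High 22.4%. The nearest other region was a median of 4421 bp away between centres.

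Depth is unknown, so the part that library depth or the peak caller's threshold has in peak width was not tested.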
